A study of Homo sapiens with 22 samples.

Results

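The genes followed were 5 of the 6825 in the deposited tables: the simple-epithelium keratins KRT8, KRT18 and KRT19, the E-cadherin gene CDH1, and PKP2, which encodes plakophilin 2. They were taken by name. RNA-seq was done on 11 untreated human glioblastoma cell lines, as 22 libraries, 2 for each line. The table of 8 lines (LN-18, LN-229, KALS-1, T98G, KNS-42, SNU-1105, U-87MG and U-138MG) held 2221 genes, and KRT8, KRT18, KRT19 and CDH1 had a row in it. The table of 3 lines (A-172, AM-38 and SNU-466) held 5383 genes, and KRT8, KRT18 and PKP2 had a row in it. Every line was cultured in serum-containing medium, at 20% fetal bovine serum for AM-38 and 10% for the others. The base medium was DMEM for A-172, KNS-42, LN-18 and LN-229, EMEM for AM-38, T98G, U-138MG and U-87MG, and RPMI for KALS-1, SNU-466 and SNU-1105, so medium and line cannot be told apart. These are established lines, and nothing in the labels says that its 2 libraries came from separate cultures. The p-values are therefore against the scatter of 2 libraries per line, and that scatter may be technical.

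Keratins form the intermediate filaments of epithelial cells. A type II keratin such as keratin 8 pairs with a type I keratin such as keratin 18 or 19, and the pair assembles into filaments that are anchored at desmosomes. E-cadherin is the adhesion protein of epithelial adherens junctions, and plakophilin 2 is a plaque protein that links desmosomal cadherins to desmoplakin and so to the filaments. Astrocytes and most gliomas build their filaments from vimentin, nestin and GFAP, and keratins 8 and 18 are textbook markers of simple epithelia such as liver, gut and mesothelium.

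The library totals worked back from the deposited counts, lengths and FPKM ran from 16958669 to 21213215 reads, so 3 reads, the limit that a count of 0 allows, were worth 0.141 to 0.177 CPM (reads scaled to the library total); intervals and floors cover counting error only. The tables do not hold all genes. In the table of 8 lines 99.3% of genes had mean FPKM at least 2-fold apart between the set of T98G, LN-18 and KALS-1 and the remaining 5 lines, and in the table of 3 lines 93.9% did so between SNU-466 and the other lines. All 4 members of the first table and all 3 of the second met this as well, so having a row already went with a difference along that division. Of the glial markers looked for, only SOX2 had a row among the 8 lines, where KNS-42 had 319 ± 9.88 FPKM (SD, n = 2), LN-229 had 43.3 ± 4.92 and SNU-1105 had 42.2 ± 13.6, and the other 5 lines 0.01 to 1.04, among them both keratin-rich LN-18 (0.04) and keratin-poor U-87MG (0.05). Among the 3 lines GFAP, S100B, OLIG1 and SOX10 were highest in SNU-466 (S100B at 958 FPKM), and OLIG1 had 0 reads in A-172 and AM-38, while ALDH1L1 was highest in AM-38 (1.46 FPKM, against 0.02 in SNU-466). NES, encoding nestin, was abundant in each of the 3 lines, at 84.2 ± 1.06 FPKM in SNU-466, 58.8 ± 1.42 in A-172 and 24.0 ± 0.191 in AM-38. The 2 libraries of T98G differed most: 55.8% of genes agreed within 1.5-fold. SNU-1105 came next with 66.6%, and the other 6 lines of that table had 78.3% or more.

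KRT18 was transcribed at clear levels in 8 of the 11 lines and was close to absent in U-87MG, U-138MG and SNU-466. Among the 8 lines it was highest in LN-18, at 63.97 and 69.59 FPKM in the 2 libraries, and in KALS-1, at 61.19 and 56.27. T98G followed at 35.86 and 17.42 FPKM and LN-229 at 16.78 and 17.12. KNS-42 stood at 7.21 and 8.86 FPKM and SNU-1105 at 7.52 and 7.01, so these lines overlapped. U-87MG had 0.13 and 0.10 FPKM, from 8 and 6 reads, and U-138MG had 0.08 and 0.10 FPKM, from 5 and 6 reads. The first 6 lines lay above both of these lines in every library. In such bulk libraries fewer expressing cells and less RNA per cell cannot be told apart. In the table of 3 lines A-172 had 328.04 and 312.8 FPKM, AM-38 had 74.93 and 69.11, and SNU-466 had 0.06 and 0.08, from 3 and 5 reads. No library of one of these 3 lines overlapped with another line. The tables were fitted apart, so the higher level of A-172 than of any of the 8 lines is set side by side with no test.

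KRT8, the type II partner, was lower per length than KRT18 in most lines and ranked the lines in nearly the same order. LN-18 led with 22.19 and 22.55 FPKM and KALS-1 followed with 8.31 and 7.99. LN-229 had 2.66 and 2.44 FPKM, T98G 1.96 and 1.89, and SNU-1105 1.11 and 1.54. KNS-42, at 0.63 and 0.55 FPKM, and U-87MG, at 0.54 and 0.48, came next, with 76 and 66 reads behind the values of U-87MG. U-138MG was lowest at 0.09 and 0.07 FPKM, from 12 and 10 reads. In the other table A-172 reached 143.91 and 139.23 FPKM, AM-38 10.74 and 9.96, and SNU-466 0.03 and 0.05, from 4 and 7 reads. The lines of that table did not overlap. Over the 8 line means KRT8 and KRT18 had a Spearman rho of 0.95, as a description over 8 lines that were not chosen at random.

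**Figure D1:**
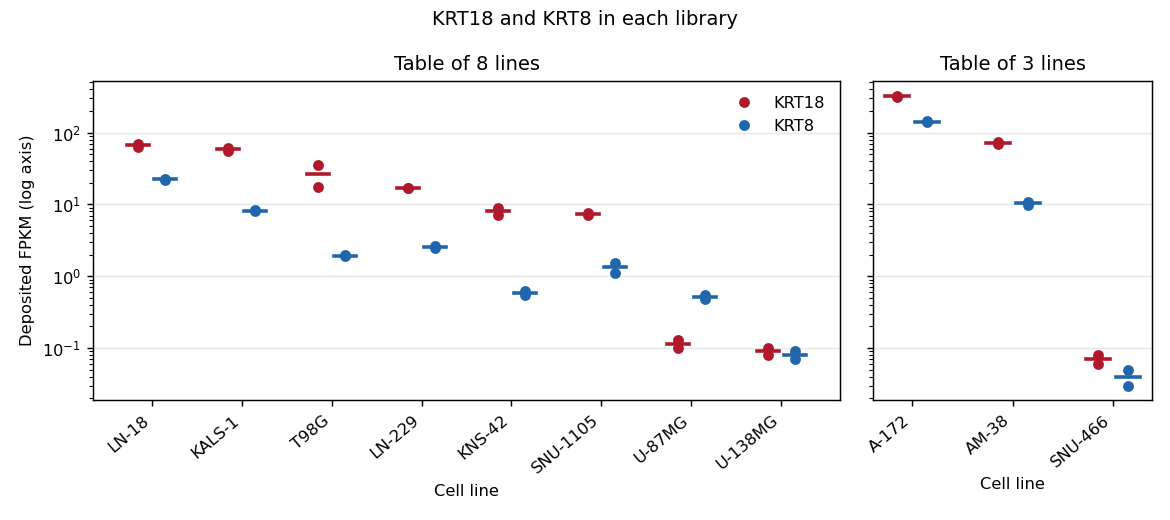
Deposited FPKM of KRT18 (red) and KRT8 (blue) in each library, on a log axis, for the 8 lines of one table (left) and the 3 lines of the other (right); points are libraries and bars are the means of 2. LN-18 and KALS-1 lead the left panel and A-172 the right panel for both genes, and KRT18 lies above KRT8 in every line except U-87MG, while the genes overlap in U-138MG.

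Both keratins differed among the lines in the edgeR quasi-likelihood test (Benjamini-Hochberg adjusted p = 6.92e-15 for KRT8 and 5.14e-14 for KRT18 over the 8 lines). This alone says little, since 99.7% of the tested genes of that table were called at an adjusted p under 0.05 with a range of line means of 1 or more on the log2 scale. Pair by pair, 24 of 28 comparisons of lines were called for KRT8 and 24 for KRT18 (adjusted p under 0.05 and a difference of at least 1 on the log2 scale), against 57.8% of all gene and pair tests. LN-18 was 2.74-fold above KALS-1 for KRT8 (log2 difference 1.46, edgeR adjusted p = 4.40e-06) but not distinguishable from it for KRT18 (0.19, adjusted p = 0.537). For KRT18 the order then fell from KALS-1 to T98G (1.14, adjusted p = 0.000625), and T98G did not differ from LN-229 by the fold required (0.65, adjusted p = 0.0301). These 2 steps rest on T98G: without its second library the first was 0.71 and not called, and the second was 1.08 and called. LN-229 exceeded KNS-42 by 1.08 (adjusted p = 0.00116), which fell under the fold required without the first KNS-42 library (0.94), and KNS-42 and SNU-1105 were not distinguishable (0.15, adjusted p = 0.648). The largest step for KRT18 was from SNU-1105 to U-87MG, at 5.99 on the log2 scale (edgeR adjusted p = 1.54e-10). LN-18 was 594-fold above U-87MG and 744-fold above U-138MG, and these last lines were not distinguishable from each other (0.32, adjusted p = 0.670).

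For KRT8 the steps were placed differently at the low end. LN-229 and T98G (log2 difference 0.40, edgeR adjusted p = 0.0999) and KNS-42 and U-87MG (0.21, adjusted p = 0.446) were not distinguishable. SNU-1105 exceeded KNS-42 by 1.17 (adjusted p = 0.000150), although without the second SNU-1105 library this was 0.91 and not called. U-87MG, which shared the floor of KRT18 with U-138MG, was 2.65 above it for KRT8 (adjusted p = 2.67e-07). In the table of 3 lines, where 98.1% of tested genes differed among lines by the same rule, KRT8 (edgeR adjusted p = 4.87e-91) and KRT18 (4.13e-88) were called too. They were called in 3 of 3 pairs, where 75.1% of all gene and pair tests were called. A-172 exceeded AM-38 by 13.7-fold for KRT8 (log2 difference 3.77, SE 0.0504, edgeR adjusted p = 3.63e-74) and by 4.45-fold for KRT18 (2.15, SE 0.0452, adjusted p = 2.65e-59). Of the tested genes, 24.2% were called higher in A-172 than in AM-38. SNU-466 lay 3289-fold under A-172 for KRT8 and 4558-fold for KRT18, as ratios of line means that rest on 11 and 8 reads in SNU-466.

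The ratio of KRT8 to KRT18, taken within a library and per length, was under 1 in every line with at least 10 reads of both genes in each library. It was 0.347 and 0.324 in the libraries of LN-18, 0.136 and 0.142 in KALS-1, and 0.158 and 0.143 in LN-229. SNU-1105 had 0.147 and 0.220, T98G 0.0548 and 0.109, and KNS-42 0.0871 and 0.0620. LN-18 thus held the highest ratio of these 6 lines, above every library of the others, and KNS-42 and T98G the lowest, overlapping each other. The ratio differed among the 6 lines in an exact permutation test over all 10395 ways to pair the 12 libraries (F = 10.1, p = 0.00904; without T98G, F = 20.2, p = 0.00423). In the other table A-172 had 0.439 and 0.445 and AM-38 0.143 and 0.144. With 4 libraries the exact permutation test cannot give a p below 0.333, and the libraries of each line lay far closer together than the lines did. AM-38, KALS-1 and LN-229 had line means of 0.144, 0.139 and 0.150.

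U-87MG departed from all of these lines. Its KRT8 to KRT18 ratio was 4.24 and 4.91, with KRT8 above KRT18 in both libraries. KRT18 was near its floor while KRT8 stood at the level of KNS-42. The pooled reads, 142 of KRT8 and 14 of KRT18, gave a ratio of 4.52 with an exact 95% interval of 2.61 to 8.49. In U-138MG the ratio was 1.07 and 0.743 (pooled 0.892, interval 0.415 to 2.04) and in SNU-466 0.595 and 0.624 (pooled 0.613, interval 0.225 to 1.76). Those intervals include 1, so at this depth the order of the genes could not be told in either line.

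**Figure D2:**
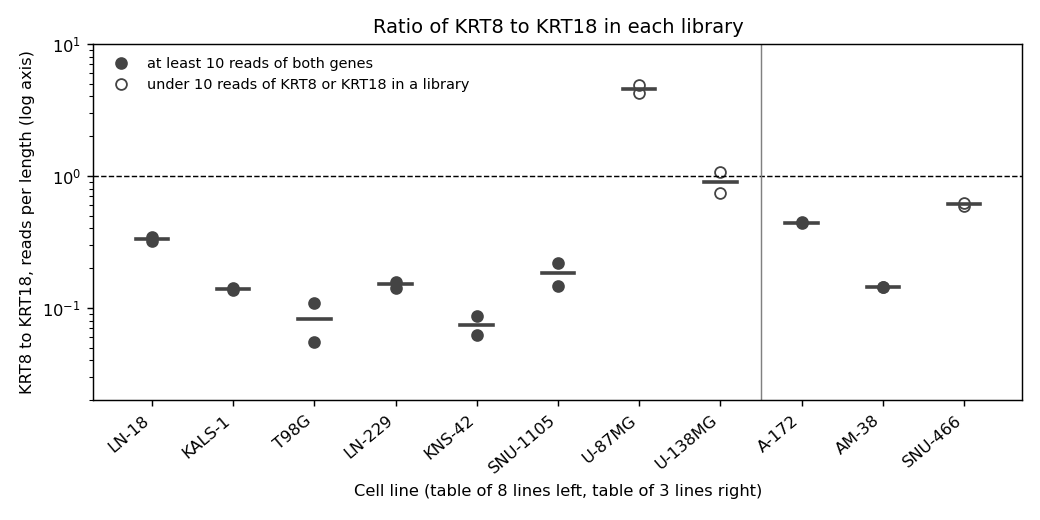
Ratio of KRT8 to KRT18 reads per length in each library, on a log axis, with bars at the line means; filled points are lines with at least 10 reads of both genes in each library and open points the others, and the dashed line marks a ratio of 1. LN-18 (mean 0.335) and A-172 (0.442) are highest among the filled points, and only U-87MG (4.57) lies wholly above 1.

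The size of the ratio, unlike its order among lines, depends on the gene lengths. The genes lie side by side on chromosome 12 of GRCh38. In GENCODE 29 KRT8 (ENSG00000170421, minus strand) spans chr12:52897187-52949954, and KRT18 (ENSG00000111057, plus strand) spans chr12:52948871-52952901. Long alternative KRT8 transcripts reach over the start of KRT18, so the genes overlap by 1084 bases, of which 525 are exonic in both, while their main transcripts lie 42.3 kb apart. The deposited length of KRT8, 6881 bases, includes those long transcripts, against 1882 bases for its main transcript. For KRT18 the lengths were 3069 and 1562 bases. With main transcript lengths every ratio is 1.86 times as large, which leaves KRT8 below KRT18 in all 8 lines with at least 10 reads of both genes per library. Libraries were strand-specific, but the counting is not stated to have used strand, so reads in the overlap are uncertain. KRT8 also has processed pseudogenes. KRT8P12, on chromosome 3, had 207 and 224 reads in A-172, 237 and 226 in AM-38 and 52 and 56 in SNU-466. It was thus level between A-172 and AM-38 and exceeded KRT8 itself in SNU-466. KRT8P3 followed the order of KRT8 instead, with 55 and 47 reads in A-172, 1 and 3 in AM-38 and 1 and 0 in SNU-466. How far reads were shared between these copies was not tested.

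KRT19, a type I keratin that can replace keratin 18 as the partner of keratin 8, was a trace transcript beside the others. It had 29 and 27 reads in LN-18 (0.65 and 0.59 FPKM), 20 and 12 in KALS-1 (0.50 and 0.26 FPKM), and 0 to 4 reads in each library of the other 6 lines. T98G and U-138MG had 0 reads in both libraries. Every library of LN-18 and KALS-1 lay above every other library, and these lines were not distinguishable from each other (log2 difference 0.71, edgeR adjusted p = 0.267). Of 28 pairs 12 were called (42.9%, against 57.8% of all gene and pair tests), all of them LN-18 or KALS-1 against another line. KRT19 passed the low-count filter before testing only through LN-18 and KALS-1, so calls confined to their pairs add no support. KALS-1 exceeded the next line, LN-229, by 2.78 (edgeR adjusted p = 0.00458, and 0.0646 in DESeq2). KRT19 lies on chromosome 17 (chr17:41523617-41528308, minus strand), apart from the cluster of KRT8 and KRT18.

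CDH1 was detected in the same pair of lines and hardly elsewhere. KALS-1 had 160 and 191 reads (1.54 and 1.60 FPKM) and LN-18 153 and 160 reads (1.32 and 1.34 FPKM). KNS-42 followed with 17 and 5 reads (0.14 and 0.04 FPKM), U-138MG had 1 read in 1 library, and LN-229, SNU-1105, T98G and U-87MG had 0 reads in both. KALS-1 and LN-18 thus lay above every other library and did not differ from each other (log2 difference 0.24, edgeR adjusted p = 0.595). KALS-1 was 16.9-fold and LN-18 14.3-fold above KNS-42. With only the first KNS-42 library these were 10.9 and 9.22, and with only the second 37.3 and 31.6. The step from LN-18 to KNS-42 was 3.82 (adjusted p = 4.81e-06). Against the 4 lines without a read, with 3 reads over both libraries as the floor, KALS-1 was at least 114-fold higher and LN-18 at least 96.7-fold. Of 28 pairs 17 were called, or 60.7%, close to the 57.8% of all gene and pair tests. CDH1 passed the low-count filter through KALS-1 and LN-18, so the calls of these lines against others add no support. The CDH1 levels remained low per length: in KALS-1 its FPKM was under 2, against 58.7 ± 3.48 for KRT18. CDH1 (ENSG00000039068) lies at chr16:68737225-68835548 on the plus strand.

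PKP2 separated A-172 from the other lines of its table. A-172 had 1828 and 1933 reads (9.12 and 9.34 FPKM), AM-38 had 1 and 4 reads, and SNU-466 had none in either library. PKP2 passed the low-count filter through A-172 alone, so calls of A-172 against the other lines add no support. A-172 was 764-fold above AM-38 (log2 difference 9.53, edgeR adjusted p = 2.03e-60) and at least 1156-fold above SNU-466. The first fold rests on 5 reads and was 2010 with only the first AM-38 library and 472 with only the second. The pair of AM-38 and SNU-466 was called as well (4.32, adjusted p = 0.0172), but it sets 5 reads against 0 and was lost without the second AM-38 library (adjusted p = 0.176) and without either SNU-466 library (0.0683 and 0.0842). AM-38 held KRT18 at 74.93 and 69.11 FPKM with next to no PKP2. PKP2 (ENSG00000057294) lies at chr12:32790745-32896840 on the minus strand.

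**Figure D3:**
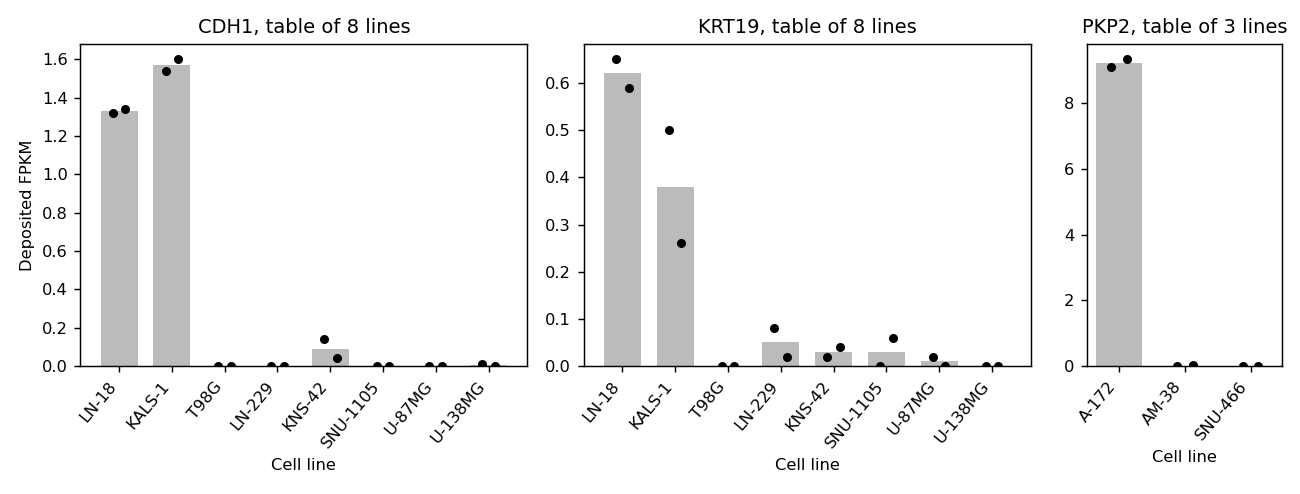
Deposited FPKM of CDH1, KRT19 and PKP2 by cell line; bars start at 0 and give the mean of 2 libraries, points are the libraries. CDH1 and KRT19 are high in LN-18 and KALS-1, with CDH1 also at 0.14 and 0.04 in KNS-42, and PKP2 is high in A-172 alone among the 3 lines of its table.

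Whether junction genes went with the keratins was read from largely different genes in each table, so the answers cannot be set against each other. CDH1 had a row only among the 8 lines, and desmosome genes only among the 3 lines. In the table of 8 lines CDH1 had a Spearman rho of 0.48 with KRT18 and 0.39 with KRT8 over the line means. The values fell to 0.24 and 0.0985 without KALS-1, and likewise without LN-18, so they rest on these lines, and 4 lines shared a CDH1 count of 0. Over all other genes of the table the median size of rho, sign aside, was 0.62 with KRT18 and 0.55 with KRT8, so CDH1 followed the keratins no more closely than most listed genes. T98G, next after KALS-1 for KRT18, and LN-229 had no CDH1 read, while KNS-42, with less KRT18 than either, had 22. Placental cadherin CDH3 followed CDH1 in being highest in KALS-1 (3.92 ± 0.247 FPKM), LN-18 (0.58 ± 0.269) and KNS-42 (0.225 ± 0.0636). The other adherens genes with a row, the neural catenins CTNNA2 and CTNND2, were highest in KNS-42 (21.8 ± 1.16 and 3.96 ± 0.445 FPKM) and had at most 4 reads of CTNNA2 and 20 of CTNND2 in LN-18, KALS-1, T98G and LN-229. No gene of the desmosome list, 0 of 14, had a row in this table.

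Other junction genes among the 8 lines differed in their relation to the keratins. Of 25 tight junction genes 4 had a row, and the 3 that were tested were all called, as were 99.7% of all tested genes. CLDN1, encoding claudin 1, was highest in KNS-42 (10.2 ± 1.53 FPKM). MARVELD2, encoding tricellulin, and CLDN9 were highest in KALS-1 (0.200 and 0.575 FPKM, from 39 and 34 reads). LN-18 had 0.06 and 0.08 FPKM, from 12 and 5 reads. T98G had 4 reads of CLDN9, so the line next after KALS-1 could not be told for that gene. Their rho with KRT18 was 0.50 for CLDN1, 0.60 for MARVELD2 and 0.71 for CLDN9. CLDN6, not tested, had at most 21 reads in a line and a rho of -0.55. The gap junction gene GJA1, encoding connexin 43, was highest in KNS-42 (305 ± 23.8 FPKM) and SNU-1105 (281 ± 82.8). U-87MG (113 ± 6.92 FPKM), U-138MG (43.4 ± 2.11), KALS-1 (28.5 ± 0.686) and LN-18 (24.2 ± 1.12) followed. LN-229 (10.6 ± 0.276 FPKM) and T98G (9.78 ± 0.863) were lowest. Its rho with KRT18 was -0.57, against a median size of 0.62 over the other genes. Of 30 epithelial identity genes 4 had a row. AP1M2, a subunit of the epithelial sorting adaptor AP-1B, was highest in LN-18 (2.56 ± 0.184 FPKM) and KALS-1 (1.96 ± 0.127), and SFN, encoding 14-3-3 sigma, in KALS-1 (1.98 ± 0.0778) and LN-18 (1.38 ± 0.255). The transcription factors EHF and ELF5 ran the other way: EHF was highest in LN-229 (0.470 FPKM) and U-87MG (0.385) with 0.01 in LN-18, and ELF5 in U-87MG (0.215) with 0 reads in LN-18. These 4 genes fall outside the rule for named genes and were chosen after their values were seen.

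In the table of 3 lines some desmosome genes were highest in A-172, where KRT8 and KRT18 were highest too. Of 14 desmosome genes 7 had a row, and 5 of the 7 were called higher in A-172 than in AM-38 and none lower. Of all tested genes 24.2% and 24.6% were called in these directions. The 5 include DSP and PKP2, which passed the low-count filter through A-172 alone. Their calls therefore add no support, and the median below includes them. Leaving out PKP1, which had 2 reads in A-172 and 0 in AM-38, the median log2 ratio of line means over the other 6 was 3.82, and the median fitted difference over all tested genes was 0.05. Desmoplakin, DSP, was at 10.0 ± 0.226 FPKM in A-172 and at 0.015 in AM-38, from 10 reads in both libraries. JUP, encoding plakoglobin, was at 42.4 ± 1.22 against 0.505 ± 0.177 FPKM, and DSG2, a desmosomal cadherin, at 18.5 ± 1.08 against 7.82 ± 0.156. PERP, a membrane protein of desmosomes and the fifth of these genes besides PKP2, was at 56.9 ± 1.29 against 25.0 ± 0.311 FPKM. Against SNU-466 the same 5 were higher in A-172 and PKP1 was lower, with a median of 4.67 (1.28 over all tested genes). Of all tested genes 49.9% were called higher and 34.8% lower. The calls of DSP and PKP2 add no support here either, nor does that of PKP1, which passed the filter through SNU-466 alone.

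AM-38 held keratins with only part of this set. Against SNU-466 it was higher in DSP, PKP2, PERP and DSG2 and lower in PKP1 and PKP4 (51.6% of tested genes were called higher and 40.1% lower), and DSP and PKP2 stood at 10 and 5 reads. JUP was not called between AM-38 and SNU-466, at 0.505 ± 0.177 and 0.44 ± 0.0424 FPKM. Some other keratins were higher in AM-38 than in A-172. KRT7, a type II keratin of ducts, was at 29.3 ± 1.75 FPKM against 2.07 ± 0.240 in A-172. The hair keratin KRT81 was at 863 ± 9.55 against 73.5 ± 0.856. Within AM-38, KRT18 at 72.0 ± 4.12 FPKM stayed above KRT7. KRT81 reads can be shared with its near-identical neighbour KRT86 and are uncertain. KRT80 was high in both A-172 and AM-38, at 90.3 ± 2.38 and 93.5 ± 3.86 FPKM. LAMB3, a laminin chain of hemidesmosomal attachment, was at 259 ± 19.4 FPKM in AM-38 against 9.02 ± 0.601 in A-172. The simple keratins were thus split between these lines, with KRT8 and KRT18 higher and KRT7 lower in A-172.

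The adherens genes did not separate A-172 from AM-38 in one direction. Of 15 genes 7 had a row. CDH2, encoding N-cadherin, was called higher in A-172 (65.6 ± 1.35 against 28.02 ± 0.502 FPKM), CDH4 and NECTIN3 lower, and the median difference was -0.10. Tight junction genes were called higher in A-172 in 4 of 8 (TJP3, CGNL1, CLDN1 and CLDN4) and lower in none, where 24.2% and 24.6% of tested genes were called. TJP3, with 46 reads against 10, passed the low-count filter through A-172 alone, so its call adds no support. CLDN4, encoding claudin 4, was at 4.30 ± 0.615 against 1.17 ± 0.0495 FPKM. CGNL1 was at 3.285 ± 0.332 against 1.06 ± 0.156 FPKM, and CLDN1 at 1.58 ± 0.0566 against 0.70 ± 0.0849. SNU-466, with hardly any keratin 8 or 18, still held some genes of the epithelial identity list. ERBB3, a receptor kinase, was at 44.4 ± 0.396 FPKM, ESRP1, an epithelial splicing regulator, at 3.29 ± 0.184 and FXYD3 at 8.23 ± 0.997, each at 0.12 FPKM or less in A-172 and AM-38. Of the 11 tested genes of that list, A-172 was higher than SNU-466 in 6 and lower in 4, near the shares over all tested genes (49.9% and 34.8%).

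**Figure D4:**
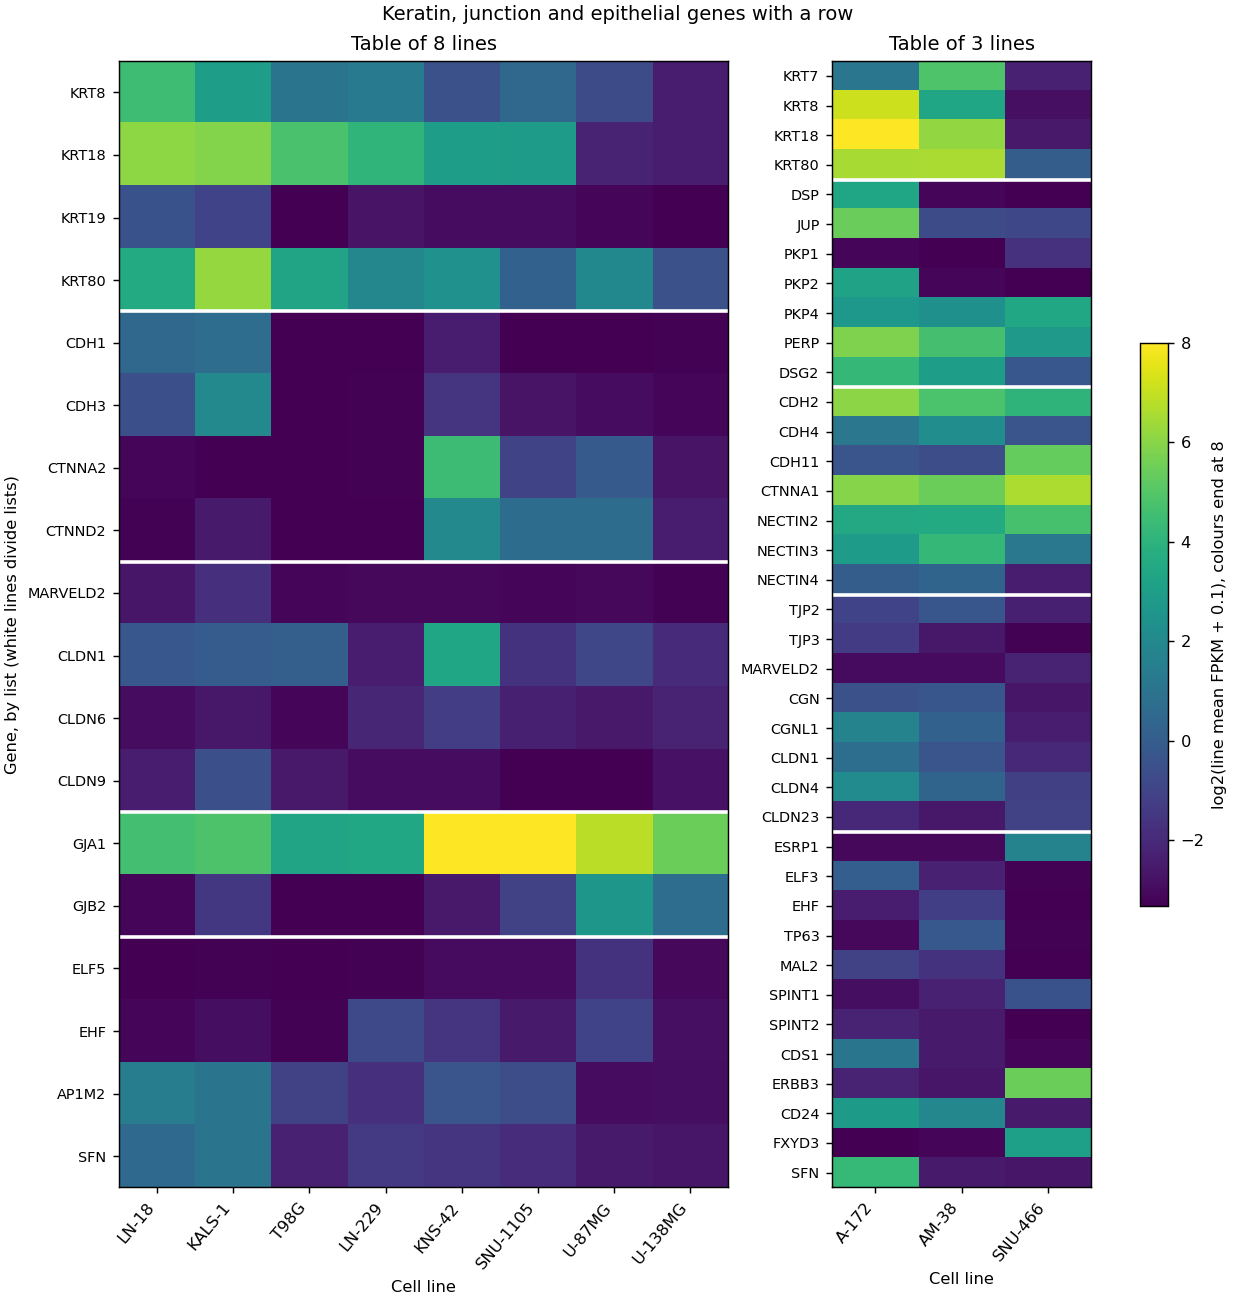
Line means of deposited FPKM, as log2 after adding 0.1, for the genes of 6 lists (simple keratins, desmosome, adherens, tight and gap junctions, epithelial identity) that had a row in the table of 8 lines (left) or of 3 lines (right); white lines divide the lists and yellow is 8 or more. On the right DSP, JUP and PKP2 are bright in A-172 only, and on the left the neural catenins and GJA1 are bright in KNS-42 where KRT8 is dim.

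VIM and 2 transcription factors of the epithelial-mesenchymal transition ran opposite to the keratins among the 8 lines. VIM, encoding vimentin, was abundant in each line, from 239.7 ± 1.32 FPKM in LN-18 to 955 ± 126 in U-87MG. ZEB2, a repressor of CDH1, was lowest in LN-18 (0.455 ± 0.120 FPKM), T98G (0.91 ± 0.141) and KALS-1 (2.16 ± 0.212) and highest in U-87MG (9.56 ± 0.636). PRRX1, a mesenchymal homeobox factor, was at 0.005 FPKM in LN-18, 0.200 in T98G and 6.98 in KALS-1, and at 66.8 ± 1.59 in U-138MG. Over the 8 line means rho with KRT18 was -0.81 for VIM, -0.86 for ZEB2 and -0.90 for PRRX1. A rho of at least 0.8 in size was found for 18.2% of the genes of the table, whose choice goes with the division that sets LN-18, KALS-1 and T98G apart. In the table of 3 lines the factors did not share a direction. ZEB2 was highest in keratin-poor SNU-466 (20.4 ± 0.255 FPKM, against 2.40 in A-172 and 2.42 in AM-38), and so was SNAI1 (9.70 ± 0.361, against 1.34 and 0.03). ZEB1 was lowest there (0.445 ± 0.0212, against 4.83 in A-172 and 4.005 in AM-38), as was PRRX1 (0.045, against 2.735 and 3.395). NEFL, a neurofilament gene, was at 102 ± 0.587 FPKM in A-172 and 9.80 ± 0.127 in AM-38 with 1 read in SNU-466, the same order as the keratins.

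Markers of mesothelium, an epithelium rich in keratins 8 and 18, were present at low levels in A-172. Of 6 such genes MSLN, CALB2 and UPK3B had a row among the 3 lines, and each was highest in A-172, at 3.90, 6.04 and 4.39 FPKM, where 24.1% of all genes of the table were highest. The summed level was 31.6 CPM in A-172, 4.36 in AM-38 and 0.630 in SNU-466, and UPK3B had 0 reads in SNU-466. Among the 8 lines only WT1 had a row, highest in LN-18 at 2.33 ± 0.120 FPKM. KALS-1 and T98G came next, with 140 and 58 WT1 reads over both libraries. WT1 had 0 reads in U-138MG but also in LN-229, and 6 and 4 reads in KNS-42 and SNU-1105, which do hold KRT18. Its rho over the 8 line means was 0.81 with KRT18 and 0.68 with KRT8. A size of at least 0.8 with KRT18 was found for 18.2% of genes. Of 6 immune and 6 endothelial markers 3 of each had a row among the 3 lines. The immune sum was 5.97, 1.79 and 0.165 CPM in A-172, AM-38 and SNU-466, and the endothelial sum 12.6, 6.33 and 0.0255 CPM. The part of such markers in the keratin levels was not tested.

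Neighbouring keratin genes were not at one level with KRT8 and KRT18. Within 1000 kb of the pair, KRT80, KRT81 and KRT86 had rows among the 8 lines, and KALS-1 led all of them, with KRT81 at 297 ± 2.81 FPKM and KRT80 at 74.9 ± 0.474, above LN-18 at 54.7 ± 0.318 and 11.9 ± 0.714. LN-18 led for KRT8, by contrast. Among the genes most like KRT18 over the 16 libraries, by Pearson r of log2 CPM over 1179 genes that reached 10 CPM in some line, were MTHFS (r 0.920) and RBPMS2 (0.916). Those most like CDH1 were EID2B (0.965), a gene with the identifier ENSG00000234147 (0.932) and UPF3B (0.920). Over the 6 libraries of the other table r was above 0.9 for 704 of 2978 genes with KRT8, 783 with KRT18 and 249 with PKP2, so 3 lines hardly set genes apart. The highest there were SDCBP, FBLIM1 and GPR161 for KRT8, NPC1, TOMM34 and GABRA3 for KRT18, and PLCXD3, SLC6A2 and CAVIN2 for PKP2, with r of at least 0.9986. Libraries of 1 line count as separate points in these values.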

How the data were processed

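Poly(A) RNA libraries of 11 cell lines, 2 per line, were analysed from 2 tables. For each gene the authors deposited its length and, for each library, its read count (unnormalised) and FPKM. The tools were HISAT2 2.2.1, StringTie 1.3.3, HTSeq 0.6.0, FastQC 0.10.1 and cutadapt 1.9.1 and the build hg38/GRCh38, per the submitters' processing notes; each tool's role, the strand setting of the counting, the annotation release and how the listed genes were chosen are not given in the sources used here. Deposited counts, lengths and FPKM of genes with at least 20 FPKM and 200 reads gave each library's total, which returned the deposited FPKM within 0.01 for at least 99.9% of genes. The listed genes hold 5.81% to 10.2% of those totals in the table of 8 lines and 21.8% to 37.1% in the table of 3.

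Each table was fitted apart with the edgeR 4.0.16 quasi-likelihood test (R 4.3.3) on the counts, with these totals as library sizes and no TMM factors, since most listed genes differ. After the low-count filter 2095 and 5035 genes were tested, and p-values were Benjamini-Hochberg adjusted over all of them (over all genes and pairs for pairs of lines). Calls need an adjusted p under 0.05 and a log2 difference of at least 1. Fitted differences of genes at or near 0 reads depend on the fit, so folds are ratios of line mean CPM or lower bounds against 3 reads. Levels are deposited FPKM, as mean ± SD over 2 libraries. The KRT8 to KRT18 ratio is reads per deposited length within a library. Its intervals are exact binomial, from pooled reads. Alternatives were TMM and RLE factors, DESeq2 1.42.0, limma 3.58.1, no filter, a replicate block, another prior count (0.5 in place of 2) and each library left out. T98G left out whole and main transcript lengths (the first-numbered APPRIS principal transcript) were added after the data were seen, as were the rank correlations of transcription factors and filament genes, the desmosome median without PKP1 and folds with 1 library left out. The fit was tested on simulated data.

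Names were found for 2220 of the 2221 genes and 5382 of the 5383; coordinates are from GENCODE 29. The members and the 17 gene and marker lists were chosen with earlier results of these data known. From a list, at most 4 called genes per table were named, those with the largest range among genes reaching 10 CPM in some line, and for the most alike genes the 3 with the highest r; others are said to be chosen after their values were seen or are named to spell out a count. Some genes that these rules select are not reported here.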

Additional observations from a re-analysis of the deposited data

How the results depend on the processing

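The counts of genes, of tests and of pairs called per member stayed within 1.5 times of the main counts under the alternatives run, and the ratio test stayed under 0.05 in the alternatives that could change it. Leaving out 1 library gave 2128 to 2147 genes called among the 8 lines and 33396 to 34379 gene and pair tests, and 4957 to 5100 genes and 11090 to 11466 tests among the 3 lines. Pairs called were 24 to 25 for KRT8, 23 to 24 for KRT18, 12 to 13 for KRT19 and 17 for CDH1, and in the table of 3 lines 3 for KRT8, 3 for KRT18 and 2 to 3 for PKP2. Over the 22 alternatives that keep all 28 pairs they were 24 to 25, 23 to 24, 11 to 14 and 17 in the table of 8 lines. Without both T98G libraries 19, 18, 10 and 14 of the 21 remaining pairs were called. The PKP2 pair lost is AM-38 against SNU-466. Leaving out 1 line gave rho of 0.236 to 0.67 for CDH1 with KRT18 and of 0.0985 to 0.571 for CDH1 with KRT8.

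Of 708 re-computed differences between neighbours in the order, over 34 pairs, 694 kept their call, 9 lost it, 5 gained it and 0 reversed. TMM and RLE factors moved the median of all genes in T98G by 0.61 and 0.56 on the log2 scale. KRT18 then did not pass between KALS-1 and T98G (0.85 and 0.75) but passed between T98G and LN-229 (1.62 and 1.44), and KRT8 passed between T98G and SNU-1105 (1.28 and 1.22). The log2 ratio of KRT8 to KRT18 reversed in sign in 2 lines of few reads: with main transcript lengths it was 0.73 in U-138MG and 0.18 in SNU-466, and as raw reads 1.00 and 0.45; the change of length scale, by construction, shows the cause.

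Libraries with the same replicate number did not deviate together (correlations of -0.0717 to 0.0704 over the pairs of 8 lines and -0.0149 to 0.0232 over those of 3), so the numbers pair nothing. With a replicate block the pairs called stayed at 24, 24, 12 and 17 for KRT8, KRT18, KRT19 and CDH1, and the ratio test within replicate numbers gave an exact permutation p = 0.0292 over 720 arrangements. With at most 29 reads per library, KRT19, and, with fewer still, the low lines of CDH1 and PKP2, are limited by depth.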
